A study of Homo sapiens with 12 samples.

Results

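The genes described here encode the proteasome and the factors that activate, inhibit or assemble it, in the human mantle cell lymphoma line Z-138. They were taken from the count table by symbol: every gene whose symbol starts with PSMA, PSMB, PSMC, PSMD, PSME, PSMF or PSMG followed by a digit, with pseudogenes left out. This gave 47 of the 13820 genes in the table, and all 47 were among the 12602 genes tested. Of the 47, 44 encode proteasome proteins or their assembly factors. The other 3 share the letters only: PSMC3IP, a recombination factor, and the antisense RNAs PSMD5-AS1 and PSMG3-AS1. PSMA8, PSMB10, PSMB11 and PSMG2 were not analysed here, so PSMB10, the inducible partner of PSMB7, has no value below.

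The proteasome degrades proteins that carry ubiquitin chains. Its barrel, the 20S core, is built from alpha rings that form the gate and beta rings that hold the proteolytic sites, and the 19S cap on either end binds, unfolds and feeds in the substrate. In lymphoid cells, and in other cells after interferon, the inducible beta subunits PSMB8, PSMB9 and PSMB10 can take the places of the constitutive PSMB5, PSMB6 and PSMB7 to form the immunoproteasome. Its products, with those of the PA28 activator encoded by PSME1 and PSME2, feed the presentation of peptides on MHC class I. Proteasome inhibitors are a treatment of mantle cell lymphoma.

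The study asked how loss of SMARCA4, a motor subunit of SWI/SNF, which remodels chromatin, affects the response of these cells to ibrutinib, an inhibitor of the kinase BTK, plus venetoclax, an inhibitor of BCL2. There were 4 groups of 3 libraries: control shRNA with DMSO, SMARCA4 shRNA with DMSO, control shRNA with 3 µM ibrutinib plus 3 µM venetoclax, and SMARCA4 shRNA with the same drugs. All 4 groups were cultured with doxycycline, and all come from 1 cell line. The labels name neither the hairpin sequence nor the time of exposure, and a knockdown effect cannot be told apart from an effect of the construct. Nothing in them tells whether the 3 replicates came from different cultures. The p-values therefore reflect only how much these libraries vary, which may be technical. Levels are in CPM, counts set to a common library size after TMM scaling. Libraries read the 3' ends of mRNA, where a transcript gives about the same number of reads at any length, so levels were not divided by gene length. In bulk RNA, fewer cells with a transcript and less of it per cell cannot be told apart.

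Total counts ranged from 7279503 to 22528537, and the deepest library was replicate 3 of the SMARCA4 shRNA in DMSO. The targeted gene, SMARCA4, was at 170.0 ± 9.67 CPM (SD, n = 3) in knockdown DMSO libraries against 577 ± 21.6 in their controls, and at 175 ± 8.66 against 610 ± 28.2 CPM under drug. The B cell and mantle cell markers CCND1 (3290 to 4889 CPM), SOX11 (320.6 to 661.5 CPM) and PAX5 (68.4 to 94.8 CPM) were present in every library. Of the markers of T and NK cells, 1 of 6 was measured, CD3G. It lay at 15.8 ± 0.401 CPM in control DMSO libraries, 1.64 ± 0.383 with the knockdown, 16.5 ± 2.13 in control libraries under drug and 1.90 ± 0.440 with the knockdown under drug. Of the 6 markers of fibroblasts and epithelium 1 was measured, COL1A1 (14.2 to 26.0 CPM), and the 3 monocyte markers and the remaining ones were not analysed here. Ribosomal RNA took 8.86% to 9.48% of counts in control DMSO libraries, 10.0% to 11.1% with the knockdown, 10.2% to 10.8% in control libraries under drug and 7.20% to 8.98% with the knockdown under drug. The part of CD3G or of ribosomal RNA in the results below was not tested, beyond 1 alternative that took the ribosomal rows out. The column taken as control replicate 1 under drug carried no treatment in its name and was assigned because no other sample was left, so calls named below that change without it are given both ways.

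Levels differed widely among the 44 genes. Averaged over the 12 libraries, PSMB1, a structural beta subunit, was the highest at 1078 CPM, followed by the 19S subunits PSMD3 (666.4 CPM) and PSMD4 (445 CPM). PSMA6 (8.45 CPM), an alpha subunit, and PSMD5 (9.45 CPM), an assembly chaperone of the 19S base, were the lowest, although PSMA6 is as much a part of every core as PSMB1. For 10 of the 44 genes the reference annotation names pseudogenes, 13 for PSMC1 and 4 for PSMA6. How the authors counted reads shared with such copies is not given in the sources used here, so the levels of these genes are uncertain.

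The inducible catalytic subunits PSMB8 and PSMB9 and the PA28 activator genes PSME1 and PSME2 fell in DMSO and under drug, to between 33.1% and 71.9% of the control level. PSMB5, the constitutive counterpart of PSMB8, rose to 125% of the control level in DMSO and 142% under drug. Genes of the other alpha, beta and 19S subunits differed by at most 0.32 on the log2 scale in either comparison. In DMSO, 2 of the 47 genes were higher and 16 lower at an adjusted p under 0.05 (edgeR's quasi-likelihood F test, Benjamini-Hochberg over all genes), which is 4.26% and 34% of them. Of all genes tested in that comparison, 15.1% were higher and 16.2% lower. Under drug, 2 were higher and 10 lower (4.26% and 21.3%), against 14.8% and 16.3% of all genes. With library totals as scaling the split under drug was 8 higher and 7 lower. The median log2 fold change of the 47 was -0.07 in DMSO and -0.10 under drug, beside 0.00379 and 0.00178 for all genes. Libraries did not overlap for 4 genes higher and 20 lower in DMSO, where 21.4% and 21.5% of all genes did the same, and for 5 and 14 under drug, against 19.8% and 21.2%. The DMSO share of lower genes thus lay above that of all genes and the share of higher genes below it, with no test of either difference.

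**Figure D1:**
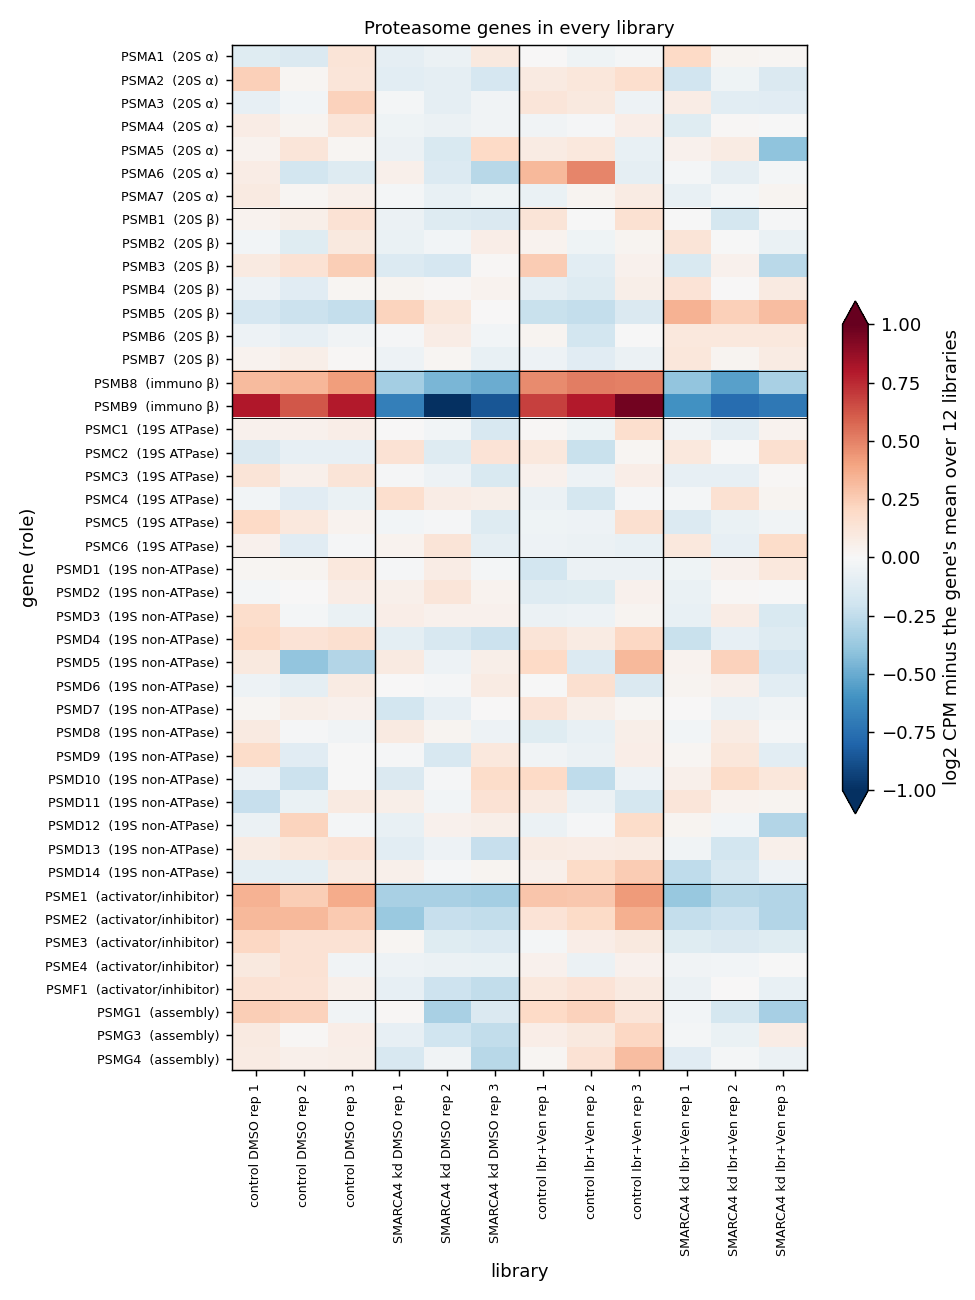
Level of each of the 44 proteasome genes (rows, by role) in each of the 12 libraries (columns), as log2 CPM minus the gene's own mean over the libraries; red is above the mean, blue below, and the scale ends at 1 in either direction. PSMB8, PSMB9, PSME1 and PSME2 are red in all 6 control libraries and blue in all 6 knockdown libraries, while PSMB5 is blue in all 6 control libraries and red or near white in the knockdown libraries.

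The immunoproteasome genes showed the largest differences of all members. PSMB8 and PSMB9 lie close together on chromosome 6 in the MHC class II region, with TAP1, a subunit of the peptide transporter, as the only protein-coding gene between them. The 250 bases before each transcription start are shown because both genes moved together and sit in a region known for interferon control. They come from RefSeq (GRCh38.p14), 5′ to 3′ on the gene's strand, for PSMB8 chr6:32844680-32844929 (minus strand) and for PSMB9 chr6:32853942-32854191 (plus strand). Capitals mark matches on either strand to 5 of the 6 motifs searched, named further on, and GC boxes are left in lower case.
PSMB8: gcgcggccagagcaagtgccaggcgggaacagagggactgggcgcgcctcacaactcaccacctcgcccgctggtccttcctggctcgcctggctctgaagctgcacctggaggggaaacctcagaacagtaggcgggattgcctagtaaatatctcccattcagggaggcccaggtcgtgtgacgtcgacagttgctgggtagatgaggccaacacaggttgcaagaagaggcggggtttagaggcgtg
PSMB9: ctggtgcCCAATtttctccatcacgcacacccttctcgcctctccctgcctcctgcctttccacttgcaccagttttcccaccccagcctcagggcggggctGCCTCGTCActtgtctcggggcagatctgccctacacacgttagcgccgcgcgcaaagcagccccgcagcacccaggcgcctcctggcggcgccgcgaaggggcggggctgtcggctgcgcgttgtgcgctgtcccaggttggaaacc

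PSMB8 encodes the inducible chymotrypsin-like subunit. In DMSO it was measured at 101.5, 102.6 and 108.9 CPM in the control libraries and at 64.2, 59.2 and 57.8 CPM in the knockdown libraries. Under drug the control libraries held 113.1, 116.1 and 115.4 CPM and the knockdown libraries 61.9, 55.9 and 65.0 CPM. Every knockdown library lay below every control library under both treatments. PSMB8 fell by 0.79 (log2, SE 0.07, adjusted p = 2.51e-11) in DMSO, to 57.7% of the control level, and by 0.91 (SE 0.07, adjusted p = 1.92e-12) under drug, to 53.1%.

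PSMB9, the inducible subunit that takes the place of PSMB6, had the largest fold change of the 47 genes in both comparisons. It was measured at 77.1, 67.9 and 76.6 CPM in control DMSO libraries and at 27.6, 21.6 and 24.4 CPM with the knockdown. Under drug it stood at 71.0, 76.6 and 86.3 CPM in control libraries and at 29.004, 26.0 and 27.0 CPM with the knockdown. The groups were far apart, and the highest knockdown library held less than 0.5 of the CPM of the lowest control library. PSMB9 fell by 1.59 (log2, SE 0.09, adjusted p = 1.19e-15) in DMSO, to 33.1% of the control level, and by 1.51 (SE 0.09, adjusted p = 1.09e-14) under drug, to 35.0%. Both genes kept their calls under all 21 alternative settings in both comparisons. The antisense gene TAPSAR1 (ENSG00000204261), which overlaps PSMB8, was looked up after the values were seen. It stood at 18.1 ± 2.54 CPM in control DMSO libraries and 5.65 ± 0.722 with the knockdown. Its log2 fold change was -1.71 (adjusted p = 3.33e-10). The strand setting of the counting is not given in the sources used here, so reads of PSMB8 and of this antisense RNA cannot be told apart.

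Among the constitutive catalytic subunits, only PSMB5 passed the test as higher in both comparisons. PSMB5 carries the chymotrypsin-like site and is the main target of bortezomib. It was measured at 141.4, 136.7 and 135.0 CPM in control DMSO libraries and at 185.3, 172.1 and 159.4 CPM with the knockdown. Under drug the values were 136.0, 134.5 and 144.0 CPM in control libraries and 202.2, 187.5 and 197.2 CPM with the knockdown. All 6 knockdown libraries lay above all 6 control libraries. PSMB5 was higher by 0.32 (log2, SE 0.06, adjusted p = 8.08e-05) in DMSO and by 0.50 (SE 0.06, adjusted p = 6.68e-08) under drug, and both calls held under all 21 alternatives.

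PSMB6, the constitutive caspase-like subunit, was measured at 118, 115.2 and 119 CPM in control DMSO libraries and at 121, 128.4 and 119.8 CPM with the knockdown. With drug the values were 124.6, 107.5 and 121.7 CPM in control libraries and 131.4, 131.3 and 131.4 CPM with the knockdown. The knockdown libraries were higher in both without overlap, by margins of a few CPM. The log2 difference was 0.07 (SE 0.06, adjusted p = 0.437) in DMSO and 0.15 (SE 0.06, adjusted p = 0.0515) under drug, so neither passed. Without control replicate 1 under drug, the library assigned by elimination, the second reached 0.20 (adjusted p = 0.034), and without control replicate 3 under drug 0.18 (adjusted p = 0.0443). It also passed without control DMSO replicate 1 (adjusted p = 0.0447), without control DMSO replicate 3 (0.0427) and without knockdown DMSO replicate 3 (0.0425), and in all it passed in 10 of the 21 alternatives.

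PSMB7, the constitutive trypsin-like subunit, was measured at 385.8, 390.5 and 379.1 CPM in control DMSO libraries and at 362.4, 380.1 and 356.4 CPM with the knockdown, which overlapped. In the drug-treated groups it reached 361.8, 347.9 and 361.4 CPM in control libraries and at 405.7, 383.4 and 397.9 CPM with the knockdown, without overlap. PSMB7 was higher under drug by 0.15 (log2, SE 0.05, adjusted p = 0.0213) and differed by -0.07 (SE 0.05, adjusted p = 0.278) in DMSO. The call was lost without control replicate 2 under drug (adjusted p = 0.0933), without knockdown replicate 1 under drug (adjusted p = 0.0659), and in a fit of these groups alone (adjusted p = 0.0535).

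**Figure D2:**
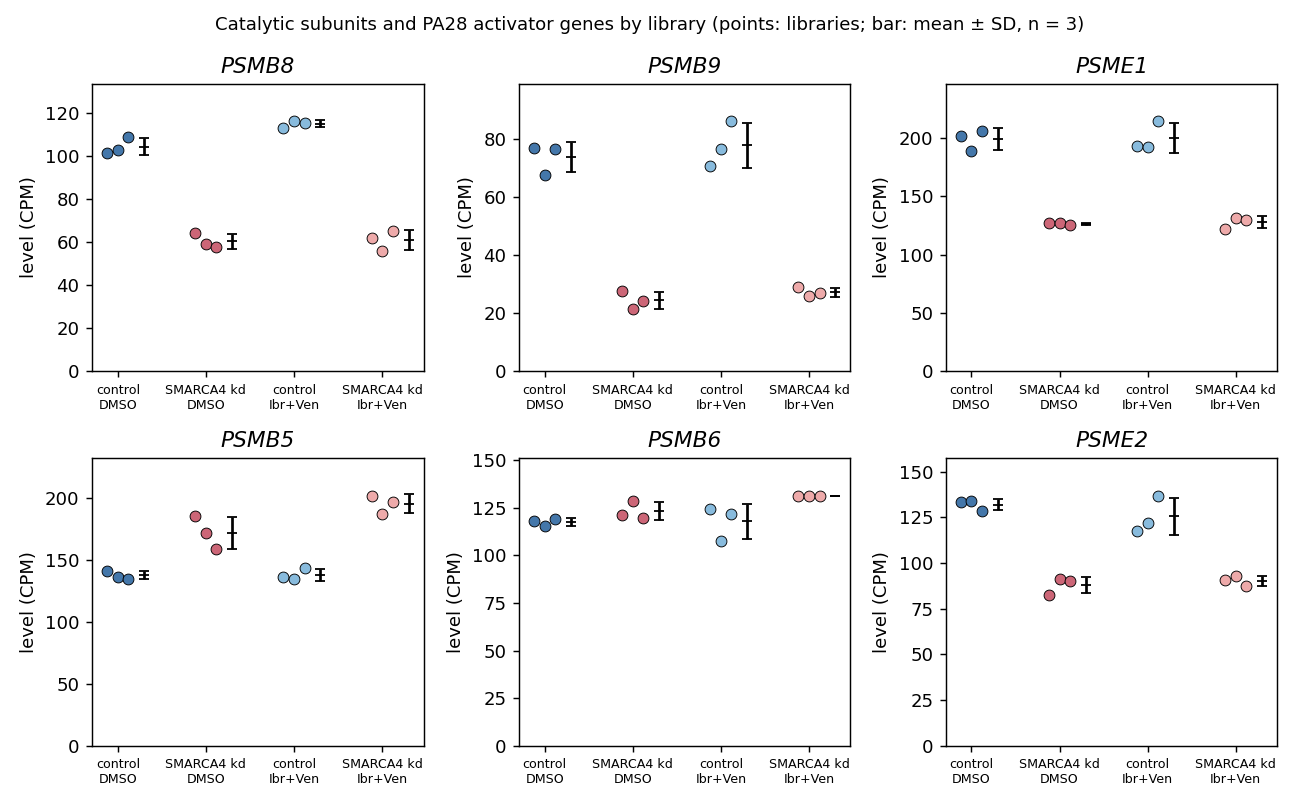
Level in CPM (y axis, from 0) of PSMB8, PSMB9, PSME1, PSMB5, PSMB6 and PSME2 in the 4 groups (x axis); points are libraries and bars mean ± SD (n = 3). The knockdown libraries lie below the control libraries for PSMB8, PSMB9, PSME1 and PSME2, and above them for PSMB5, under both treatments.

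Because an inducible subunit takes the place of a constitutive one, the ratio of their counts within a library was computed, which needs no scaling between libraries. The ratio of PSMB8 to PSMB5 was 71.8%, 75.1% and 80.7% in control DMSO libraries and 34.7%, 34.4% and 36.2% with the knockdown. Under drug it was 83.1%, 86.4% and 80.2% in control libraries and 30.7%, 29.8% and 33.0% with the knockdown. None of the 6 knockdown libraries reached the lowest of the 6 control libraries. The mean log2 ratio was lower by 1.26 with the knockdown, a ratio of 0.416 to the control (exact stratified permutation test, two-sided, p = 0.005, adjusted p = 0.01 over 4 tests). The smallest p that the 400 arrangements can give is 0.005.

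The ratio of PSMB9 to PSMB6 was 65.3%, 58.9% and 64.4% in control DMSO libraries and 22.8%, 16.9% and 20.4% with the knockdown. Under drug it was 57.0%, 71.3% and 70.9% in control libraries and 22.1%, 19.9% and 20.6% with the knockdown. The knockdown and control libraries again did not overlap. The mean log2 ratio was lower by 1.66, a ratio of 0.316 to the control (exact stratified permutation test, two-sided, p = 0.005, adjusted p = 0.01). Averaged over control and knockdown cells, the drug changed neither ratio past the threshold. The difference was -0.02 for PSMB8 over PSMB5 (exact permutation p = 0.755). That mean joins shifts in opposite directions, -0.17 in knockdown cells and 0.135 in control cells. Neither shift was tested alone, and their mean cannot show a change that differs in direction. In knockdown cells the PSMB8 ratio of every drug library lay below that of every DMSO library, while the control libraries overlapped. For PSMB9 over PSMB6 the difference was 0.07 (exact permutation p = 0.42, adjusted p = 0.56), with 0.07 in knockdown and in control cells. Both ratios are of mRNA counts and not of assembled particles.

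**Figure D3:**
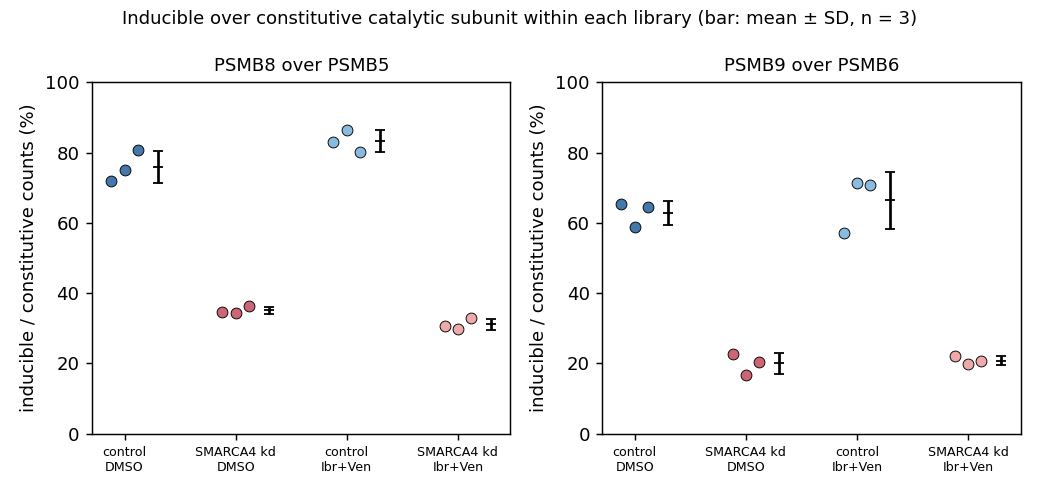
Counts of the inducible catalytic subunit as a percentage of those of the constitutive one it replaces (y axis, from 0) in each library of the 4 groups (x axis); points are libraries and bars mean ± SD (n = 3). PSMB8 over PSMB5 averages 75.9% and 83.2% in the control groups and 35.1% and 31.1% in the knockdown groups, and PSMB9 over PSMB6 62.9% and 66.4% against 20.01% and 20.9%.

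Of the activators, the PA28 alpha and beta subunits stood out. PSME1 and PSME2 form a ring that opens the core gate without ubiquitin, and like the immunoproteasome subunits they are known to be induced by interferon gamma. Both genes lie on chromosome 14 with EMC9 as the only protein-coding gene between them. Their 250 bases before the start are shown with those of PSMB5, on the same chromosome, because PSMB5 moved the opposite way (RefSeq, GRCh38.p14). The windows are chr14:24135944-24136193 on the plus strand for PSME1, chr14:24146611-24146860 on the minus strand for PSME2 and chr14:23035221-23035470 on the minus strand for PSMB5, and capitals have the same meaning as above.
PSME1: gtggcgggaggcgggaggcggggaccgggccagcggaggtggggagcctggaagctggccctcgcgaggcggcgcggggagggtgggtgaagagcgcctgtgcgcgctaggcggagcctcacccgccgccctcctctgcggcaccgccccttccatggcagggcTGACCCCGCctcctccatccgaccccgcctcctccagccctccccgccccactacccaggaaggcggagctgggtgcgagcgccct
PSME2: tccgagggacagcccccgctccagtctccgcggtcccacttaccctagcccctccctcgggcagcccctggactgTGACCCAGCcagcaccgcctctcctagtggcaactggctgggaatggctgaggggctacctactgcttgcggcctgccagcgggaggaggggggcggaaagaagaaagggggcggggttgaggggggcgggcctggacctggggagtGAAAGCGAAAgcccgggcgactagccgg
PSMB5: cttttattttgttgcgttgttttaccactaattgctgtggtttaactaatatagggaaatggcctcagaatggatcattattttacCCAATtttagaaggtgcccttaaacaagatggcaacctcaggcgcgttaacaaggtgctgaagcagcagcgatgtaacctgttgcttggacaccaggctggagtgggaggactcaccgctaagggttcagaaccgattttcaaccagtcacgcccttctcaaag

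PSME1 was measured at 202.0, 188.6 and 206.1 CPM in control DMSO libraries and at 127.3, 126.9 and 125.7 CPM with the knockdown. Under drug it was at 193.2, 192.1 and 214.3 CPM in control libraries and at 122.2, 131.7 and 129.6 CPM with the knockdown. The 6 knockdown libraries were all lower than any control library. PSME1 fell by 0.65 (log2, SE 0.06, adjusted p = 1.13e-10) in DMSO and by 0.64 (SE 0.06, adjusted p = 2.4e-10) under drug, to 63.6% and 64.0% of the control level.

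PSME2 was measured at 133.6, 133.7 and 128.3 CPM in control DMSO libraries and at 82.7, 91.1 and 90.2 CPM with the knockdown. With drug it was at 117.4, 122.1 and 136.9 CPM in control libraries and at 90.6, 92.7 and 87.2 CPM with the knockdown. Its groups did not overlap either. PSME2 fell by 0.58 (log2, SE 0.06, adjusted p = 8.2e-09) in DMSO, to 66.8% of the control level, and by 0.48 (SE 0.06, adjusted p = 6.83e-07) under drug, to 71.9%. The calls of PSME1 and PSME2 held under all 21 alternatives in both comparisons.

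The other activators and the inhibitor changed less. PSME3, the nuclear PA28 gamma, was measured at 146.1, 139.2 and 139.3 CPM in control DMSO libraries and at 127.9, 115.9 and 114.7 CPM with the knockdown, without overlap. It fell by 0.25 (log2, SE 0.06, adjusted p = 0.00111) in DMSO and by 0.18 (SE 0.06, adjusted p = 0.0208) under drug. The second call was lost without control replicate 2 (adjusted p = 0.0615) or 3 (0.0922) under drug, without knockdown replicate 1 (0.0593) or 2 (0.0578) under drug, and with library totals as scaling (-0.10, adjusted p = 0.215). PSMF1, which encodes the inhibitor PI31, fell by 0.29 in DMSO (SE 0.07, adjusted p = 0.00191), and its difference under drug was -0.15 (SE 0.07, adjusted p = 0.122). PSME4, the PA200 activator, differed by -0.13 (adjusted p = 0.114) in DMSO and -0.03 (adjusted p = 0.766) under drug. Summed over these 5 genes, the level was 614.4 ± 10.8 CPM in control DMSO libraries and 459.6 ± 6.29 with the knockdown, and 594.1 ± 27.5 and 464.8 ± 6.34 under drug.

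In the alpha ring, 1 of 7 genes passed the test in each knockdown comparison, PSMA2, and it was lower in both. PSMA2 was measured at 77.8, 66.7 and 71.5 CPM in control DMSO libraries and at 61.1, 61.8 and 58.6 CPM with the knockdown, without overlap. It fell by 0.26 (log2, SE 0.07, adjusted p = 0.0038) in DMSO and by 0.25 (SE 0.07, adjusted p = 0.00721) under drug. The DMSO call was lost without control DMSO replicate 1 (adjusted p = 0.0731), and the drug call without knockdown replicate 1 under drug (adjusted p = 0.0524) and with library totals as scaling (adjusted p = 0.0664). The summed level of the 7 alpha genes was 972.3 ± 29.8 CPM in control and 908.2 ± 17.7 in knockdown libraries in DMSO, and 954.0 ± 23.6 and 921.2 ± 8.76 under drug.

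Of the 7 constitutive beta genes, 1 was higher and 2 lower in DMSO, and 2 were higher and 1 lower under drug. Beside PSMB5 and PSMB7, these were the structural subunits PSMB1 and PSMB3. PSMB1 was measured at 1101, 1123 and 1189.9 CPM in control DMSO libraries and at 1033, 985.3 and 973.7 CPM with the knockdown. It fell by 0.19 (log2, SE 0.05, adjusted p = 0.00596) in DMSO, without overlap, and by 0.15 (SE 0.05, adjusted p = 0.0273) under drug, where the libraries overlapped. The DMSO call was lost without control DMSO replicate 3 (adjusted p = 0.0642). The drug call was lost without control replicate 1 (0.108) or 3 (0.125) or knockdown replicate 2 (0.191) under drug, with library totals as scaling (0.33), and in a fit of these groups alone (0.0672), all adjusted p. PSMB3 fell by 0.25 in DMSO (SE 0.08, adjusted p = 0.0211) and differed by -0.20 under drug (SE 0.09, adjusted p = 0.0859). Its DMSO call was lost without control replicate 3 (adjusted p = 0.113), or knockdown replicate 1 (0.0702) or 2 (0.0901). It passed under drug without control replicate 2 (0.0262) or knockdown replicate 2 (0.0207).

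The 6 ATPases of the 19S base, which unfold substrates, included 1 higher and 2 lower in DMSO and none that passed under drug. PSMC3 fell by 0.18 (log2, SE 0.06, adjusted p = 0.0149), PSMC5 fell by 0.17 (SE 0.06, adjusted p = 0.0265), and PSMC4 was higher by 0.17 (SE 0.06, adjusted p = 0.0373). All 3 had groups that did not overlap in DMSO, and each lost its call without some single libraries. PSMC3 missed the threshold without control DMSO replicate 1 (0.0804) or 3 (0.0687) or knockdown DMSO replicate 3 (0.15), and PSMC5 without control DMSO replicate 1 (0.22) or 2 (0.0551) or knockdown DMSO replicate 3 (0.185), all adjusted p. PSMC4 missed it without control DMSO replicate 2 (0.133) or 3 (0.065), without knockdown DMSO replicate 1 (0.156) or 2 (0.0549), without control replicate 1 under drug (0.0501) and in DESeq2's Wald test (0.0531). Under drug the ATPase with the smallest adjusted p was PSMC4 (0.14, SE 0.06, adjusted p = 0.105), and 2 of the 6 had an unadjusted p under 0.05, as did 40.4% of all genes. DESeq2's Wald test and limma-voom called none of the 6 there. With library totals as scaling PSMC4 (0.22, adjusted p = 0.00673) and PSMC6 (0.22, adjusted p = 0.0131) passed as higher under drug, and PSMC6 also without knockdown replicate 2 under drug (0.21, adjusted p = 0.0206). In DMSO PSMC2 passed as higher without knockdown replicate 2 (0.24, adjusted p = 0.0244).

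Among the 14 non-ATPase genes of the 19S cap and its chaperones, 2 fell in each comparison. PSMD4, the ubiquitin receptor Rpn10, was measured at 507.3, 485.2 and 494.1 CPM in control DMSO libraries and at 413.1, 396.6 and 381.5 CPM with the knockdown. Drug-treated control libraries held 483.6, 467.5 and 510.4 CPM, and drug-treated knockdown libraries 378.5, 416.9 and 405.5 CPM. The groups did not overlap. PSMD4 fell by 0.32 (log2, SE 0.05, adjusted p = 1.12e-05) in DMSO and by 0.28 (SE 0.05, adjusted p = 7.9e-05) under drug, and both calls held under all 21 alternatives. PSMD13, a subunit of the lid, fell by 0.24 in DMSO (SE 0.06, adjusted p = 0.00164) and differed by -0.13 under drug (SE 0.06, adjusted p = 0.095), which passed without knockdown replicate 3 under drug (-0.19, adjusted p = 0.0246).

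PSMD14, the deubiquitinase that removes the ubiquitin chain before entry, was lower with the knockdown under drug and did not pass the test in DMSO. It was measured at 112.4, 112.4 and 128.0 CPM in control DMSO libraries and at 124.6, 119.0 and 122.5 CPM with the knockdown, which overlapped. With ibrutinib plus venetoclax it was at 124.5, 137.2 and 143.4 CPM in control libraries and at 100.9, 107.4 and 116.0 CPM with the knockdown, without overlap. The log2 difference was 0.05 (SE 0.07, adjusted p = 0.576) in DMSO and -0.32 (SE 0.07, adjusted p = 0.000389) under drug, where the call held under all 21 alternatives. The difference between these values, the interaction, was -0.37 (SE 0.09, 95% interval -0.56 to -0.19, adjusted p = 0.274 over all genes) and did not pass.

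The 3 chaperones measured that assemble the 20S core were all lower in DMSO, and 1 of the 3 was lower under drug. PSMG1, which pairs with PSMG2 to build the alpha ring, was measured at 51.7, 51.1 and 42.6 CPM in control DMSO libraries and at 44.0, 34.8 and 39.4 CPM with the knockdown, which overlapped. It fell by 0.30 (log2, SE 0.09, adjusted p = 0.00843) in DMSO and by 0.36 (SE 0.09, adjusted p = 0.00282) under drug. The DMSO call was lost without control DMSO replicate 1 (adjusted p = 0.0788) or 2 (0.0503) or knockdown DMSO replicate 2 (0.0667). The partner chaperones PSMG3 and PSMG4 fell by 0.23 each in DMSO (SE 0.06 and 0.08, adjusted p = 0.0016 and 0.034) and differed by -0.13 and -0.22 under drug (adjusted p = 0.0908 and 0.0516).

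Single libraries decided several of these chaperone calls. PSMG4 lost its DMSO call without control DMSO replicate 1, 2 or 3 or knockdown DMSO replicate 1 or 3 (adjusted p 0.0653 to 0.282), in DESeq2 (0.078) and with library totals (0.0546). Under drug PSMG4 passed without control replicate 1, the library assigned by elimination (-0.29, adjusted p = 0.0217), and PSMG3 passed without knockdown replicate 3 (-0.16, adjusted p = 0.0434). PSMC3IP, PSMD5-AS1 and PSMG3-AS1, which are no proteasome genes, did not pass in any comparison. The largest difference among them in DMSO was 0.29 (SE 0.12, adjusted p = 0.066) for PSMD5-AS1, which passed without control DMSO replicate 1 (0.41, adjusted p = 0.0305) and with library totals as scaling (0.31, adjusted p = 0.0498).

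**Figure D4:**
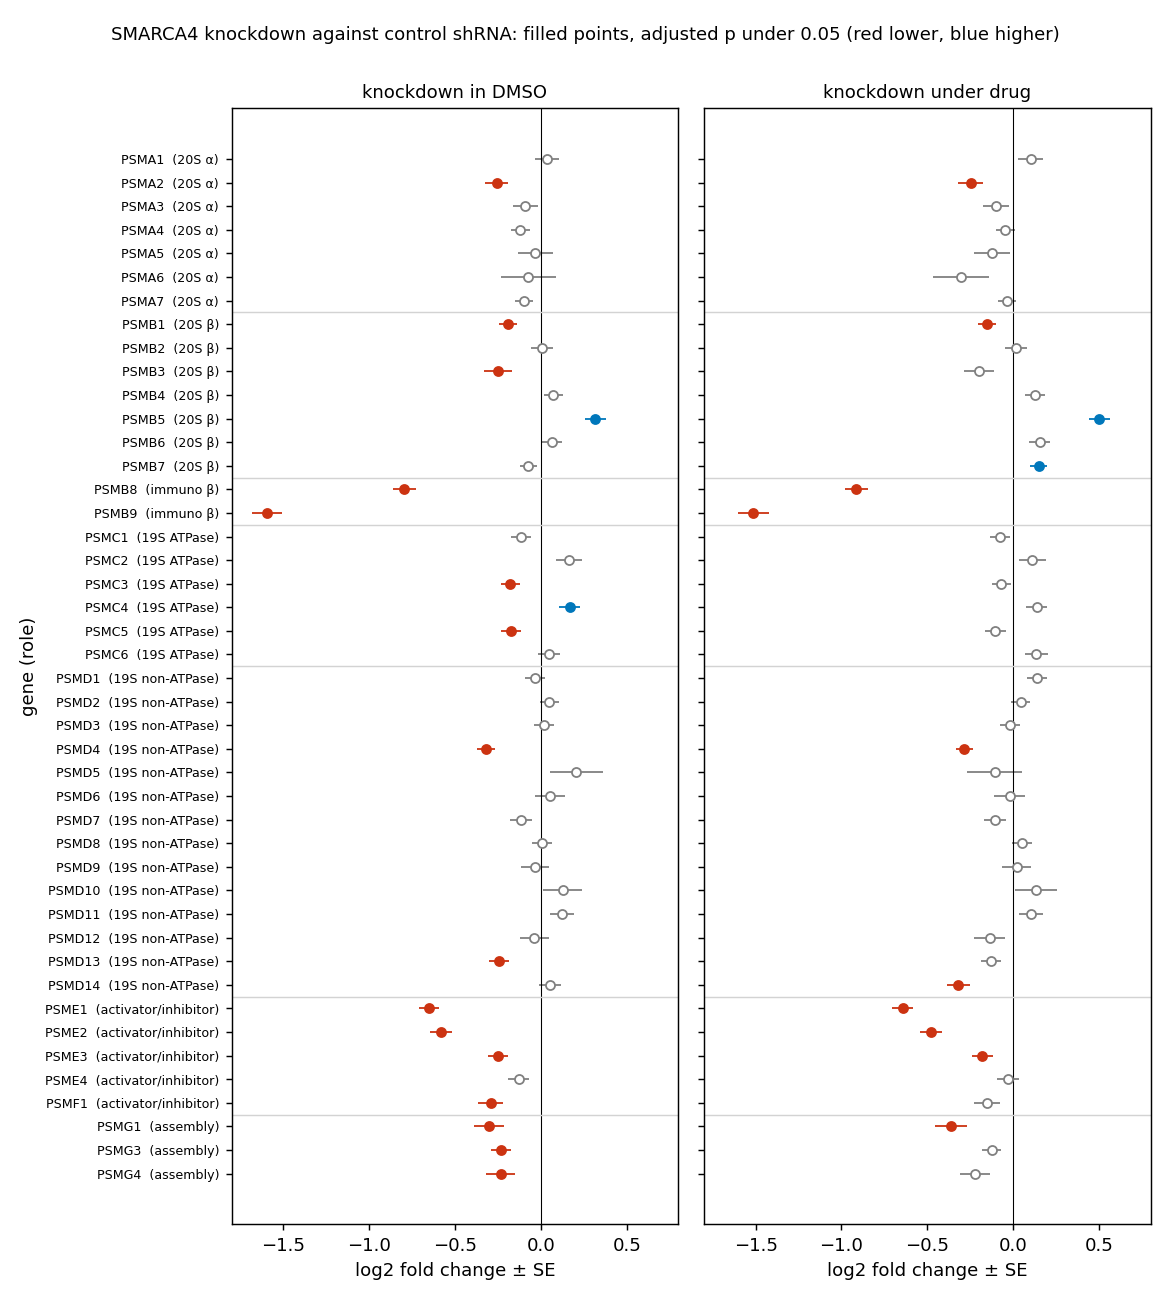
Log2 fold change ± SE (x axis) of the SMARCA4 shRNA against the control shRNA for the 44 proteasome genes (y axis, by role), in DMSO (left) and under drug (right); filled points have an adjusted p under 0.05, red lower and blue higher. PSMB9, PSMB8, PSME1 and PSME2 lie farthest to the left in both panels, and PSMB5 farthest to the right.

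The knockdown comparisons in DMSO and under drug use separate libraries. Of the 18 genes called in DMSO and the 12 called under drug, 10 were called in both with the same direction, which is 55.6% of the former and 83.3% of the latter. Of all genes called, 72.7% and 73.1% were called in both in the same way, so the members' shares lay on either side of those. None was called in opposite directions. The 9 lower in both were PSMA2, PSMB1, PSMB8, PSMB9, PSMD4, PSME1, PSME2, PSME3 and PSMG1, and the 1 higher in both was PSMB5. Calls in both comparisons held under all 21 alternatives for 6 genes: PSMB5, PSMB8, PSMB9, PSMD4, PSME1 and PSME2. A further 8 genes were called in DMSO and not under drug, and PSMB7 and PSMD14 under drug and not in DMSO. The test of the difference itself, the interaction, passed for none of the 47.

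No proteasome gene changed past the threshold with ibrutinib plus venetoclax in either background. In control cells 0 of 47 passed in edgeR's quasi-likelihood test, where 1.29% of all genes did, and DESeq2 and limma-voom also called 0. At an unadjusted p under 0.05 there were 4, PSMD14, PSMD1, PSMB7 and PSMB8, against 10.0% of all genes. In knockdown cells 0 of 47 passed in all 3 tools, beside 1.29% of all genes, and 4 had an unadjusted p under 0.05 (PSMB5, PSMG3, PSMD14 and PSMB7), beside 10.4% of all genes. The median log2 fold change over the 47 was -0.00092 in control and 0.0243 in knockdown cells. The approximate 95% intervals lay within 0.5 of zero on the log2 scale for 42 of the 44 proteasome genes in control cells and for 44 of 44 in knockdown cells. The widest reached 0.647 in control cells, for PSMA6, the subunit gene with the lowest level.

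The smallest adjusted p in control cells belonged to PSMD14, which stood at a log2 difference of 0.20 (SE 0.07, adjusted p = 0.188) and whose libraries overlapped. In knockdown cells it differed by -0.17 (SE 0.07, adjusted p = 0.295). The smallest in knockdown cells belonged to PSMB5, at 0.19 (SE 0.06, adjusted p = 0.134), and there all 3 libraries with drug lay above all 3 with DMSO. PSMG3 followed at 0.18 (SE 0.06, adjusted p = 0.15). With library totals as scaling these last 2 passed (PSMB5 0.23, adjusted p = 0.0396, and PSMG3 0.21, adjusted p = 0.036). PSMB8 and PSMB9 differed with drug by 0.14 and 0.08 in control cells (lowest adjusted p among the immunoproteasome pair 0.45) and by 0.02 and 0.16 in knockdown cells (0.623).

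The interaction sets the drug effect with the knockdown against the one without. It passed for 0 of the 47 genes in edgeR, DESeq2 and limma-voom, and for 0.0238% of all genes in edgeR. An unadjusted p under 0.05 was found for 4 of the 47, against 5.35% of all genes. After PSMD14 these were PSMB7 (0.22, adjusted p = 0.628), PSMB5 (0.18, 95% interval 0.02 to 0.35, adjusted p = 0.914) and PSMD1 (0.18, adjusted p = 0.914). The interval lay within 0.5 of zero for 41 of the 44 proteasome genes.

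**Figure D5:**
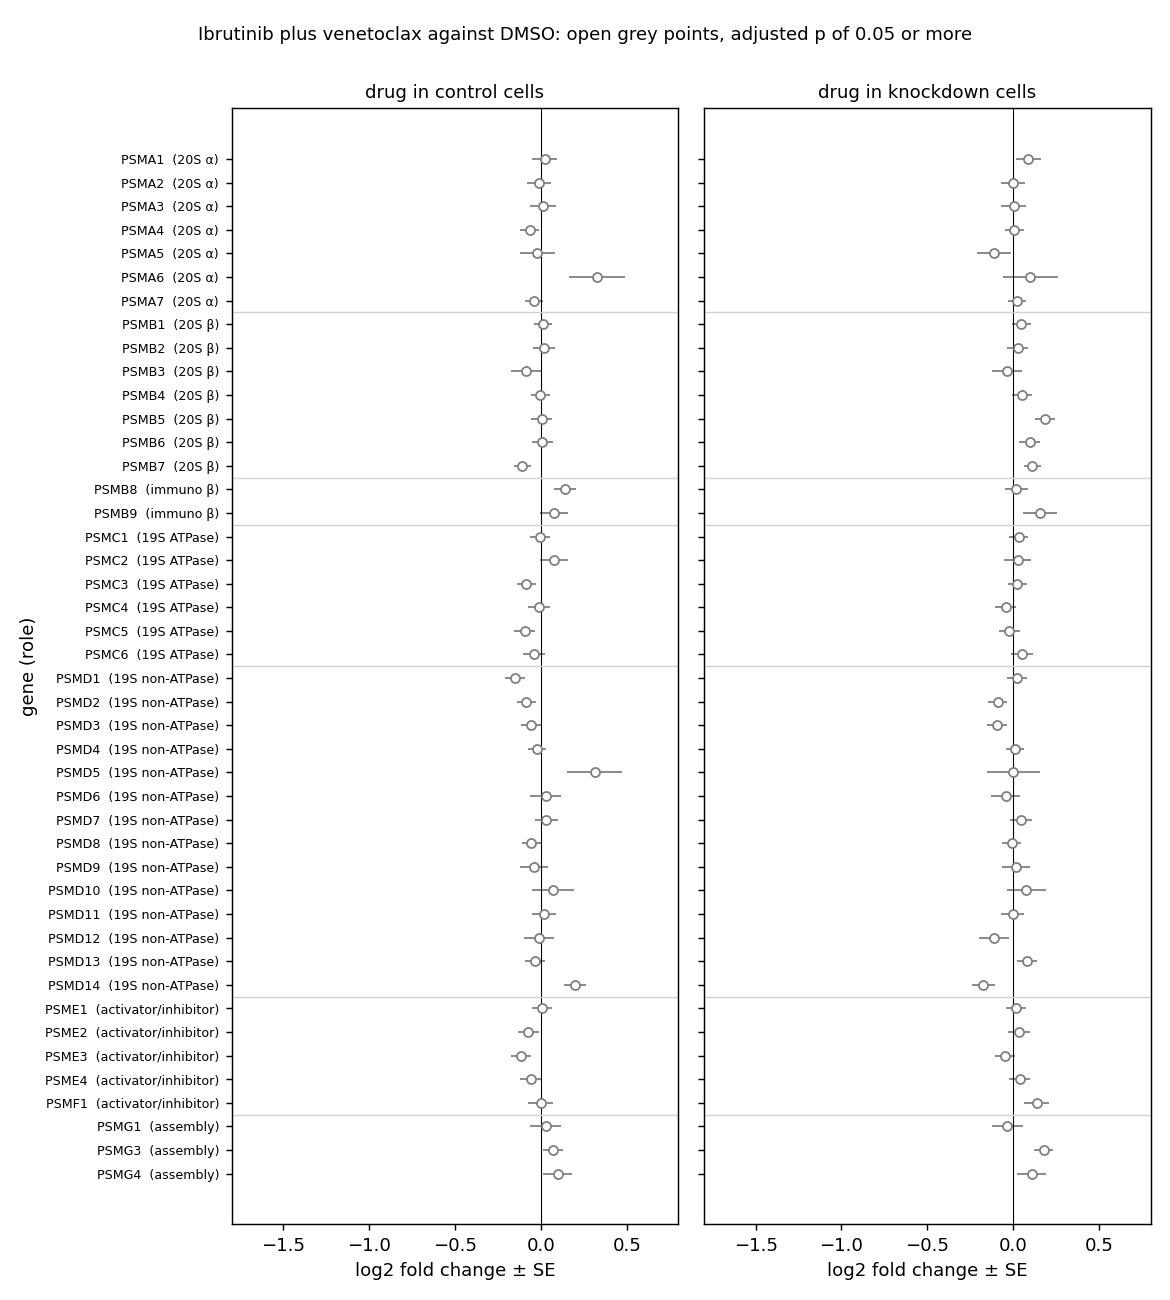
Log2 fold change ± SE (x axis) of ibrutinib plus venetoclax against DMSO for the 44 proteasome genes (y axis, by role), in control cells (left) and knockdown cells (right), on the same x scale as the knockdown plot. All points are open, since none has an adjusted p under 0.05, and PSMB5 at 0.19 is the rightmost in knockdown cells.

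The promoters were searched for motifs known from the control of these genes. RefSeq windows of 250 bases before the start were found for 38 of the 44 genes and compared with 27303 windows of all genes, on both strands. The gamma interferon activation site (TTCNNNGAA) was in 4 of the 38 windows (10.5%) and in 6.78% of all. The core of the interferon regulatory factor element (GAAA, any 2 bases, GAAA) was in 4 (10.5%) and in 3.07% of all, and in none of the 38 was the NF-kB site found (9.57% of all). The antioxidant element (TGACNNNGC), bound by NRF factors, was in 10 (26.3%) and in 11.1% of all. The CCAAT box, bound by NF-Y, was in 17 (44.7%) and in 33.1% of all, and the GC box (GGGCGG) in 25 (65.8%) and in 42.2%. These are descriptions of letters with no test.

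In the windows shown above, PSME2 held the interferon regulatory factor core as GAAAGCGAAA, 28 to 19 bases before the start, and an antioxidant match TGACCCAGC at 175 to 167. PSME1 held an antioxidant match TGACCCCGC at 86 to 78 bases before the start. PSMB9 held a CCAAT box at 243 to 239 and an antioxidant match on the other strand, read as GCCTCGTCA, at 148 to 140. PSMB5 held a CCAAT box at 164 to 160. GC boxes, left in lower case, numbered 3 in PSME1, 3 in PSME2, 2 in PSMB9 and 0 in PSMB5. PSMB8 held no match to any of the 6 motifs in this window. No match says only that these letters are absent from these bases.

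Genes that work with the proteasome were described from 4 lists. In the MHC class I peptide route and its inducers, 11 of 22 genes fell and 0 rose in DMSO, and 11 fell and 1 rose under drug. That is 50% lower in each, beside 16.2% and 16.3% of all genes, with a median log2 fold change of -0.42 in both, beside 0.00379 and 0.00178 for all genes. HLA-B, a presenting chain, was measured at 1208 ± 23.4 CPM in control and 488.3 ± 15.0 in knockdown DMSO libraries, and fell by 1.31 (log2, SE 0.05, adjusted p = 1.47e-19). B2M, the light chain, fell by 1.16 (adjusted p = 6.12e-16), and NLRC5, the transactivator of class I genes, by 1.80 (SE 0.10, adjusted p = 2e-15). Under drug HLA-B, B2M and NLRC5 fell by 1.29, 1.19 and 2.21. NLRC5 went from 34.3 ± 0.744 to 9.96 ± 0.666 CPM in DMSO and from 34.7 ± 2.90 to 7.47 ± 0.293 CPM under drug, with no overlap.

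TAP1, the neighbour of PSMB8 and PSMB9, and the interferon regulatory factor IRF1 belong to the class I list and are among the genes counted above. They were singled out after the values were seen. TAP1 stood at 12.7 ± 0.812 CPM in control and 9.09 ± 1.34 in knockdown DMSO libraries and fell by 0.48 (log2, SE 0.14, adjusted p = 0.00638), and by 0.64 under drug (adjusted p = 0.00158). IRF1 stood at 47.6 ± 0.474 and 27.0 ± 1.82 CPM and fell by 0.83 (SE 0.08, adjusted p = 4.02e-10), and by 0.86 under drug (adjusted p = 7.84e-10).

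Of 14 proteasome partners outside the symbol rule, 2 rose and 4 fell in DMSO, and 2 rose and 3 fell under drug. These are 14.3% higher and 28.6% lower in DMSO, and 14.3% and 21.4% under drug, beside 15.1% and 16.2%, and 14.8% and 16.3%, of all genes. AKIRIN2, which brings proteasomes into the nucleus, was measured at 18.7, 22.3 and 23.9 CPM in control DMSO libraries and 34.9, 34.3 and 36.6 CPM with the knockdown, without overlap. It rose by 0.72 (log2, SE 0.10, adjusted p = 4.92e-07) in DMSO and by 0.67 (SE 0.10, adjusted p = 4.02e-06) under drug. SHFM1 (SEM1), a small 19S subunit, rose by 0.31 (SE 0.05, adjusted p = 4.23e-05) and 0.26 (SE 0.06, adjusted p = 0.000425). PAAF1, a chaperone of the 19S base, fell by 0.82 in DMSO (adjusted p = 0.000402), and POMP, which matures the core, by 0.22 (adjusted p = 0.000732). Under drug UCHL5, a deubiquitinase of the cap, fell by 0.37 (adjusted p = 0.000706) and PITHD1 by 0.35 (adjusted p = 0.00397).

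Among 19 regulators of proteasome genes, 4 rose and none fell in DMSO, and 3 rose and none fell under drug. The shares higher, 21.1% and 15.8%, stand beside 15.1% and 14.8% of all genes. NFYA, a subunit of the CCAAT factor NF-Y, rose by 0.56 in DMSO (log2, SE 0.13, adjusted p = 0.000762). UFD1L, NFE2L2 and BTRC rose by 0.21, 0.25 and 0.29, and each of these 3 missed the threshold without some single libraries (highest adjusted p 0.0967, 0.168 and 0.119). UFD1L missed it without control DMSO replicate 2 or knockdown DMSO replicate 2. NFE2L2 missed it without control DMSO replicate 3 or knockdown DMSO replicate 1 or 3, and BTRC without replicate 1 or 2 of either DMSO group. In DESeq2's Wald test NFE2L2 (adjusted p = 0.0539) and BTRC (0.0704) missed it as well. Under drug BTRC rose by 0.56 (SE 0.11, adjusted p = 0.000124), and UFD1L by 0.19 (adjusted p = 0.0325) and VCP by 0.15 (adjusted p = 0.0295). NFYA did not pass there, at 30.1 ± 5.35 CPM with the knockdown and 24.8 ± 3.94 in control libraries, with overlap. It passed under drug with library totals as scaling (adjusted p = 0.0386) and without knockdown replicate 3 under drug (adjusted p = 0.0122). VCP missed the threshold without control replicate 1 (0.0813) or 2 (0.115) or knockdown replicate 1 (0.118) under drug, and in a fit of these groups alone (0.0681). UFD1L missed it without control replicate 1 (0.181) or 2 (0.0817) or knockdown replicate 1 (0.07) or 3 (0.096) under drug, and in DESeq2's Wald test (0.0504).

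NFE2L1, which encodes NRF1, the factor known to raise proteasome genes when proteasome activity drops, was the regulator that passed with drug in control cells. It was measured at 96.0, 98.2 and 94.8 CPM in control DMSO libraries and at 112.0, 115.3 and 117.5 CPM with drug, without overlap, and rose by 0.26 (log2, SE 0.06, adjusted p = 0.0159). In knockdown cells the difference was 0.21 (adjusted p = 0.0694), and it passed there with library totals as scaling (0.24, adjusted p = 0.0213). The call was lost without control DMSO replicate 1 (0.0709) or 3 (0.0769) or control replicate 2 (0.0654) or 3 (0.0807) under drug, all adjusted p.

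Of 14 genes for ubiquitin, its activating enzymes and its shuttles, 1 rose and 5 fell in DMSO, and 2 rose and 6 fell under drug. These are 7.14% higher and 35.7% lower in DMSO, and 14.3% and 42.9% under drug, beside 15.1% and 16.2%, and 14.8% and 16.3%, of all genes. The shuttle UBQLN2 rose by 0.28 in DMSO (log2, adjusted p = 0.0434) and by 0.38 under drug (adjusted p = 0.0118), and the activating enzyme UBA6 rose by 0.23 under drug (adjusted p = 0.0496). None of these 3 calls held under all alternatives. UBQLN2 in DMSO missed the threshold with the replicate number as a block (adjusted p = 0.0572), in DESeq2 (0.111), and without control DMSO replicate 1 (0.195) or 2 (0.1) or knockdown DMSO replicate 2 (0.0547) or 3 (0.229). Under drug UBQLN2 missed it without knockdown replicate 3 (0.0519). UBA6 missed it with the block (0.051), in DESeq2 (0.0803), in limma-voom (0.0599), in a fit of these groups alone (0.0583), and without any 1 of 7 libraries (0.0505 to 0.27). These were control replicate 1 or 3 and knockdown replicate 2 or 3 under drug, and, through the shared spread, control DMSO replicate 2 and knockdown DMSO replicate 1 or 2. Without control replicate 1 under drug, the library assigned by elimination, UBA6 (0.0572), UBQLN2 (0.0517) and NUB1 (0.0585) all missed it. SQSTM1, the autophagy receptor p62, fell by 0.31 in DMSO (adjusted p = 0.00299) and by 0.37 under drug (adjusted p = 0.00104). RAD23B, a shuttle, fell by 0.20 in DMSO (adjusted p = 0.00252), NUB1 by 0.21 (adjusted p = 0.0058) and UBQLN1 by 0.15 (adjusted p = 0.0146). Without knockdown DMSO replicate 3, the deepest library, SQSTM1 (adjusted p = 0.0609), NUB1 (0.114) and UBQLN1 (0.1) missed the threshold. UBQLN1 also missed it without control DMSO replicate 1 (0.0813) or 3 (0.0586). Under drug UBQLN1 fell by 0.18 (adjusted p = 0.00493).

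The polyubiquitin gene UBB rose with drug in control cells. It was measured at 30.3, 28.1 and 29.2 CPM in control DMSO libraries and at 39.9, 42.9 and 42.3 CPM with drug, and at 27.3, 28.7 and 26.2 CPM in knockdown DMSO libraries and 30.3, 29.4 and 27.6 CPM with drug. The 3 control libraries with drug stood above all 9 others. UBB rose by 0.51 (log2, SE 0.08, adjusted p = 0.000189) in control cells, and in knockdown cells the difference was 0.09 (SE 0.08, adjusted p = 0.772). Under drug it was lower with the knockdown by 0.52 (SE 0.08, adjusted p = 9.75e-06). The interaction was -0.42 (SE 0.12, 95% interval -0.64 to -0.19, adjusted p = 0.464) and did not pass. In the class I list CALR, a chaperone of the endoplasmic reticulum, was higher with drug in control cells by 0.33 (adjusted p = 0.0416). It missed the threshold in DESeq2 (0.0569), limma-voom (0.0509), with library totals (0.0685), and without control DMSO replicate 1 (0.204) or 2 (0.193), knockdown DMSO replicate 2 (0.0541) or control replicate 1 (0.0643), 2 (0.184) or 3 (0.122) under drug.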

How the data were processed

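RNA of 12 Z-138 libraries was measured by 3′ end sequencing (Lexogen QuantSeq, per the labels' protocols). The authors deposited raw whole-number counts per gene in 1 table. Reads were handled with HTSeq, HISAT2 and bcl2fastq 2.17.1.14 on build hg19, per the submitters' processing notes; the strand setting is not given in the sources used here. Row totals were 13 or more, and 1656 rows had no symbol.

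Genes were kept by filterByExpr (minimum count 10, minimum total 15), scaled by TMM and fitted with edgeR 4.0.16 (R 4.3.3) as 4 groups over all 12 libraries, with 8 residual and 22.5 prior degrees of freedom. The quasi-likelihood F test is two-sided, with Benjamini-Hochberg adjustment over 12602 genes and 0.05 as the threshold for calling a gene. The SE, taken from the F statistic, and the 95% intervals are approximate. The fit was tested on simulated data. Ratios are log2 of counts plus 0.5, tested by exact permutation within treatment or shRNA; the pair PSMB10 over PSMB7 was not analysed here, so 4 tests form the family. The members, lists and tests were chosen with earlier results of these data known. Named with full statistics are PSMB5 to PSMB9, PSME1 and PSME2, up to 3 called members per role with the smallest adjusted p, and up to 4 genes per list, of which a few are not reported here. Alternatives were other scalings, filters and tools (DESeq2 1.42.0, limma 3.58.1), the groups alone, a replicate block, no ribosomal rows, and leaving out each library. Promoter windows are RefSeq's (GRCh38.p14) and were used for sequence only; gene positions in hg19 are not given. No binomial intervals were computed for the ribosomal shares or for the count ratios of single libraries.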

Additional observations from a re-analysis of the deposited data

How the results depend on the processing

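No called result reversed under any of the 21 alternatives. Of the 18 proteasome genes called with the knockdown in DMSO, 10 kept their call under all of them, and of the 12 called under drug, 8 did. In DMSO, the 2 higher genes became 1 with DESeq2 and 1 to 3 when a library was left out, and the 16 lower became 11 to 16. Under drug, the 2 higher became 8 with library totals as scaling, 4 with a filter at 5 CPM in 3 libraries, 1 in a fit of these groups alone and 1 to 4 when a library was left out, and the 10 lower became 8 to 12. Library totals thus turned the split under drug from 2 higher and 10 lower to 8 and 7, and that of all genes from 1860 higher and 2059 lower to 2691 and 1447. With drug in knockdown cells, library totals gave 2 higher genes in place of 0. The cause of these shifts was not tested. Replicate numbers did not pair the libraries: correlations of same-numbered deviations were between -0.116 and 0.0821. With the replicate number as a block the counts stayed at 2 higher and 16 lower in DMSO and 2 and 10 under drug, and the knockdown differences in the ratios, -1.26 for PSMB8 over PSMB5 and -1.66 for PSMB9 over PSMB6, had an exact permutation p of 0.0312 each, the smallest possible there, which is 0.0625 after adjustment and so no longer passed. Those calls held when a library was left out (-1.285 to -1.24 and -1.72 to -1.60). With 3 libraries a group, a median SE of 0.0636 in the drug comparison in control cells limits what could be called.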
